A study of Mus musculus with 8 samples.

Results

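Gas5 and 6 genes of the Snhg family (Snhg1, Snhg3, Snhg5, Snhg6, Snhg8 and Snhg12) were followed in granulocytic myeloid-derived suppressor cells (Gr-MDSCs) treated ex vivo with Dactolisib, Dasatinib or DMSO. All 7 are snoRNA host genes. On the Affymetrix mouse expression array used here they have 16 probe sets assigned to that gene alone, out of 45101 probe sets in the deposited table. All 7 genes, of 18193 named by such probe sets, could be followed, and 15 of the 16 were among the 30024 probe sets tested (those whose mean signal was in the upper 66.7%). These genes were picked with their levels under the drugs already known, so the drug differences of the members are given as a description, with no claim of a test.

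A snoRNA host gene is transcribed to release its introns, which carry small nucleolar RNAs that guide the chemical modification of ribosomal and other RNAs. In the noncoding hosts the spliced exons have little coding capacity, many of these transcripts begin with a run of pyrimidines like the mRNAs of ribosomal proteins, and the spliced RNA is short-lived because translating ribosomes deliver it to nonsense-mediated decay. Gas5 was named for its accumulation in growth-arrested mouse fibroblasts, its level in human T cells rises when mTOR is inhibited, and in human cells its spliced RNA can bind the glucocorticoid receptor as a decoy.

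Gr-MDSCs, immature neutrophil-like cells that restrain T cells, came from prostate tumours of male CPPSML mice, labelled as 12 to 16 weeks old. These mice carry the PB-Cre+ transgene, the conditional alleles PtenL/L, p53L/L and Smad4L/L, and the reporters mTmGL/+ and LSL-LucL/+. All groups share this genotype and, by the study's methods, all were castrated and fed an enzalutamide diet before tumours were collected. The PB-Cre transgene acts in prostate epithelium, so it does not target the myeloid cells that were measured. Cells were isolated with magnetic beads and treated at once for 6 h with 0.1 uM Dactolisib, a dual PI3K and mTOR inhibitor (2 arrays), with 0.1 uM Dasatinib, an inhibitor of Src and other tyrosine kinases (2 arrays), or with DMSO as the solvent control (4 arrays, numbered 2 to 5). Nothing in the labels says that the arrays of a group came from separate mice, so p-values reflect the spread among these samples alone, and that spread may be technical. The treatment was read from the array titles, because the treatment field of both Dasatinib arrays reads Dactolisib.

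The arrays lay in 3 sets that cut across the treatments: Dactolisib 1 clustered with DMSO 2 and 4 (set A), Dactolisib 2 and Dasatinib 2 with DMSO 3 (set B), and Dasatinib 1 with DMSO 5 (set C). The granulocyte transcripts S100a8 and S100a9 were above a log2 signal of 13 on every array. Not all granulocyte markers were so even. On DMSO 2, 3, 4 and 5, Ltf had 12.83, 9.51, 12.94 and 12.30 and Ngp 10.45, 8.97, 10.31 and 8.94, while Lcn2 had 13.02, 13.00, 12.94 and 12.69. Mpo and Elane were dim, with mean signals of 4.54 and 5.36. Epithelial transcripts followed the sets, and Krt8, a keratin of simple epithelia, ranged between 9.88 and 10.43 (log2) on the set A arrays, between 8.09 and 8.33 on those of set B and between 13.31 and 13.37 on those of set C. In bulk RNA of this kind, fewer cells of a type and less RNA per cell cannot be told apart. Each drug array was therefore also set against the DMSO array or arrays of its own set, and the drug differences were fitted both without the sets and with the sets as a block (limma, threshold 0.05 after Benjamini-Hochberg adjustment over all 30024 probe sets). With sets in the model, a comparison of 1 drug with DMSO has 2 residual degrees of freedom. For each probe set, limma draws the variance toward a value estimated over all tested probe sets. A limma SE or p-value is thus not a measure of that probe set's own spread alone. All differences below are on the log2 scale of the deposited signals.

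In the RefSeq annotation of GRCm38.p6 all 7 genes are lncRNAs. Gas5 lies at chr1:161034601-161038539 with 8 annotated snoRNAs inside it, Snhg1 at chr19:8723487-8726326 with 8, and Snhg12 at chr4:132308678-132311024 with 4. Snhg3 (chr4:132351933-132353686) and Snhg5 (chr9:88521052-88522897) hold 2 each. Snhg6 (chr1:9942025-9944118) and Snhg8 (chr3:123507552-123508336) hold 1 each, Snord87 and Snora24. Annotated starts of 6 of the genes are shown because a pyrimidine run at the start is a feature for which noncoding hosts are known, and Snhg6 is named only. Each window has 60 bases of RefSeq sequence, 30 on either side of the start, and the capitals mark the longest unbroken run of C and T that touches the stretch from 10 bases before to 20 bases after it:
Gas5 upstream start: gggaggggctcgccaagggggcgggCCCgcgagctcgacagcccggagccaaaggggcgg
Gas5 downstream start: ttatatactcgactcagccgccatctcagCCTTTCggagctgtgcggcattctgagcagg
Snhg1: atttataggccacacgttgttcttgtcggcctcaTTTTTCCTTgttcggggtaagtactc
Snhg3: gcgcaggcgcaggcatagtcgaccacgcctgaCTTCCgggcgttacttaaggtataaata
Snhg5: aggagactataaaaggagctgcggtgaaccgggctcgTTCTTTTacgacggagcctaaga
Snhg8: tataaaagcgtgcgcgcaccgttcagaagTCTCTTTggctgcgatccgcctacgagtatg
Snhg12: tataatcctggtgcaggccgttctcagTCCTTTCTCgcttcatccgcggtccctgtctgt
The Gas5 windows are chr1:161034571-161034630 and chr1:161035136-161035195, both on the plus strand. Snhg1 (chr19:8723457-8723516) and Snhg12 (chr4:132308648-132308707) are also on the plus strand, and Snhg3 (chr4:132353657-132353716), Snhg5 (chr9:88522868-88522927) and Snhg8 (chr3:123508307-123508366) are on the minus strand. The runs had 9 bases in Snhg1 and Snhg12, 7 in Snhg5 and Snhg8, 6 at the downstream and 3 at the upstream Gas5 start, and 5 in Snhg3. A run of 7 bases or more stood at 4 of these 7 starts (57.1%) and at 8077 of 32851 starts in the table (24.6%). A run is a description of the letters and not evidence that the start in use lies there.

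The brightest Gas5 probe set, 1419291_x_at, had log2 signals of 9.28 and 9.31 under Dactolisib, 8.96 and 8.69 under Dasatinib, and 8.57, 8.61, 8.59 and 9.23 on DMSO 2, 3, 4 and 5. A second Gas5 probe set, 1449410_a_at, had 9.22 and 9.22 under Dactolisib, 8.84 and 8.53 under Dasatinib, and 8.52, 8.60, 8.72 and 9.17 under DMSO. On both probe sets the Dactolisib arrays lay above all 4 DMSO arrays, narrowly above DMSO 5 and well above the other three. Against DMSO of their own sets, Dactolisib 1 and 2 were higher by 0.70 and 0.70 on the first probe set and by 0.60 and 0.62 on the second. The fitted differences within array sets were 0.70 ± 0.08 and 0.61 ± 0.09 (limma SE, 2 Dactolisib and 4 DMSO arrays), ratios of 1.62 and 1.52. DMSO 5, alone in its set in this fit, adds nothing to such differences. Without the sets the first was 0.54 ± 0.21.

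The other Gas5 probe sets ran the opposite way. On 1436222_at the signals were 6.08 and 6.48 under Dactolisib, 6.84 and 6.71 under Dasatinib, and 6.37, 6.85, 6.45 and 6.92 on DMSO 2, 3, 4 and 5. On 1424843_a_at they were 6.05 and 6.26 under Dactolisib, 6.54 and 6.40 under Dasatinib, and 6.12, 6.61, 6.34 and 6.64 under DMSO. Each Dactolisib array was below the DMSO arrays of its own set on both probe sets, by 0.33 and 0.37 on 1436222_at and by 0.18 and 0.35 on 1424843_a_at. Across sets the order was different: Dactolisib 2 lay above both DMSO arrays of set A on 1436222_at and between them on 1424843_a_at. The differences within array sets were -0.35 ± 0.08 and -0.25 ± 0.10. Gas5 was thus higher under Dactolisib on 2 of its 4 probe sets and lower on the other two, and the deposited table does not say which transcripts or exons each set of probes reads. RefSeq lists 8 transcripts of Gas5 and 1 for each of the other 6 genes. A probe set shared by Gas5 and its intronic Snord47 (1455904_at), left out of the counts, had 5.79 and 5.87 under Dactolisib, 6.26 and 6.02 under Dasatinib, and 5.83, 5.99, 6.01 and 6.38 under DMSO.

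Snhg1, host of a group of box C/D snoRNAs, differed widely between the array sets. Its brightest probe set, 1439399_a_at, had signals of 8.23 and 8.15 under Dactolisib, 9.14 and 7.53 under Dasatinib, and 7.60, 7.61, 7.71 and 9.12 on DMSO 2, 3, 4 and 5. The set C arrays, Dasatinib 1 and DMSO 5, stood above all others, and the Dactolisib arrays stood between these and the remaining arrays. DMSO 5 exceeded the DMSO mean of set A by 1.46 and DMSO 3 by 1.51, more than the Dactolisib differences of 0.57 and 0.55 against the own sets. Within array sets Dactolisib was higher by 0.56 ± 0.08 on this probe set, by 0.72 ± 0.10 on 1433674_a_at and by 0.65 ± 0.08 on 1433675_at, ratios of 1.47 to 1.64. Without the sets the first of these differences was 0.18 ± 0.46.

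Not every Snhg1 probe set showed this. On 1454703_x_at, where signals were 4.99 and 4.89 under Dactolisib, 5.91 and 4.86 under Dasatinib, and 4.68, 4.81, 4.85 and 6.09 under DMSO, the difference within array sets was 0.17 ± 0.09. On 1437658_a_at, with signals of 5.15 and 4.74 under Dactolisib, 6.04 and 4.84 under Dasatinib, and 4.77, 5.29, 4.90 and 5.89 under DMSO, the Dactolisib arrays disagreed. Dactolisib 1 was 0.31 above and Dactolisib 2 was 0.55 below DMSO of its own set. The mean log2 signals of these 2 probe sets over the 8 arrays were 5.14 and 5.20.

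Snhg12, which carries snoRNAs of the H/ACA class and Snord99, had log2 signals of 7.10 and 7.25 under Dactolisib, 7.27 and 6.20 under Dasatinib, and 6.28, 6.25, 6.39 and 7.36 on DMSO 2, 3, 4 and 5. Apart from the set C arrays, both Dactolisib arrays lay far above every Dasatinib and DMSO array, by 0.76 and 1.0 against DMSO of their own sets. The difference within array sets was 0.86 ± 0.09, a ratio of 1.82. Snhg6, host of Snord87, had 7.76 and 7.31 under Dactolisib, 8.78 and 6.06 under Dasatinib, and 7.07, 6.08, 7.21 and 8.42 under DMSO. DMSO 5 lay 2.34 above DMSO 3, yet each Dactolisib array was above DMSO of its own set, by 0.62 and 1.23. The difference within array sets was 0.88 ± 0.14 (ratio 1.84), and 0.34 ± 0.60 without the sets.

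Snhg5, host of Snord50 family RNAs, had 7.04 and 6.90 under Dactolisib on its brightest probe set, 1428529_at, with 6.83 and 6.39 under Dasatinib and 6.40, 6.36, 6.26 and 6.77 under DMSO. The Dactolisib arrays lay above all 4 DMSO arrays here, as on the 2 higher Gas5 probe sets, and the difference within array sets was 0.64 ± 0.09, a ratio of 1.56. A dimmer Snhg5 probe set, 1432737_at, had 5.15 and 5.08 under Dactolisib, 4.84 and 5.02 under Dasatinib, and 5.14, 5.16, 4.89 and 4.87 under DMSO. It differed by 0.04 ± 0.10 within array sets, and the third Snhg5 probe set, 1432738_at, was below the signal limit and was not tested, with signals of 3.46 to 4.01 on all 8 arrays.

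Snhg8, host of Snora24, had signals of 8.63 and 8.97 under Dactolisib, 8.46 and 8.65 under Dasatinib, and 8.35, 8.68, 8.34 and 8.83 under DMSO. Both Dactolisib arrays were above DMSO of their own sets by nearly the same amount, 0.29 and 0.28, while Dactolisib 1 lay below DMSO 3 and DMSO 5 of the other sets. The difference within array sets, 0.28 ± 0.08, did not pass the limma threshold. A probe set that reads both Snora24 and Snhg8 (1447896_s_at) had 10.07 and 10.28 under Dactolisib, 9.79 and 9.99 under Dasatinib, and 9.70, 9.99, 9.74 and 10.04 under DMSO. Snhg3, host of the Snora73 pair, had 6.50 and 6.49 under Dactolisib, 6.53 and 6.41 under Dasatinib, and 6.33, 6.59, 6.39 and 6.85 under DMSO. Dactolisib 1 was 0.14 above and Dactolisib 2 was 0.10 below DMSO of its own set, so Snhg3 showed no common direction.

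**Figure D1:**
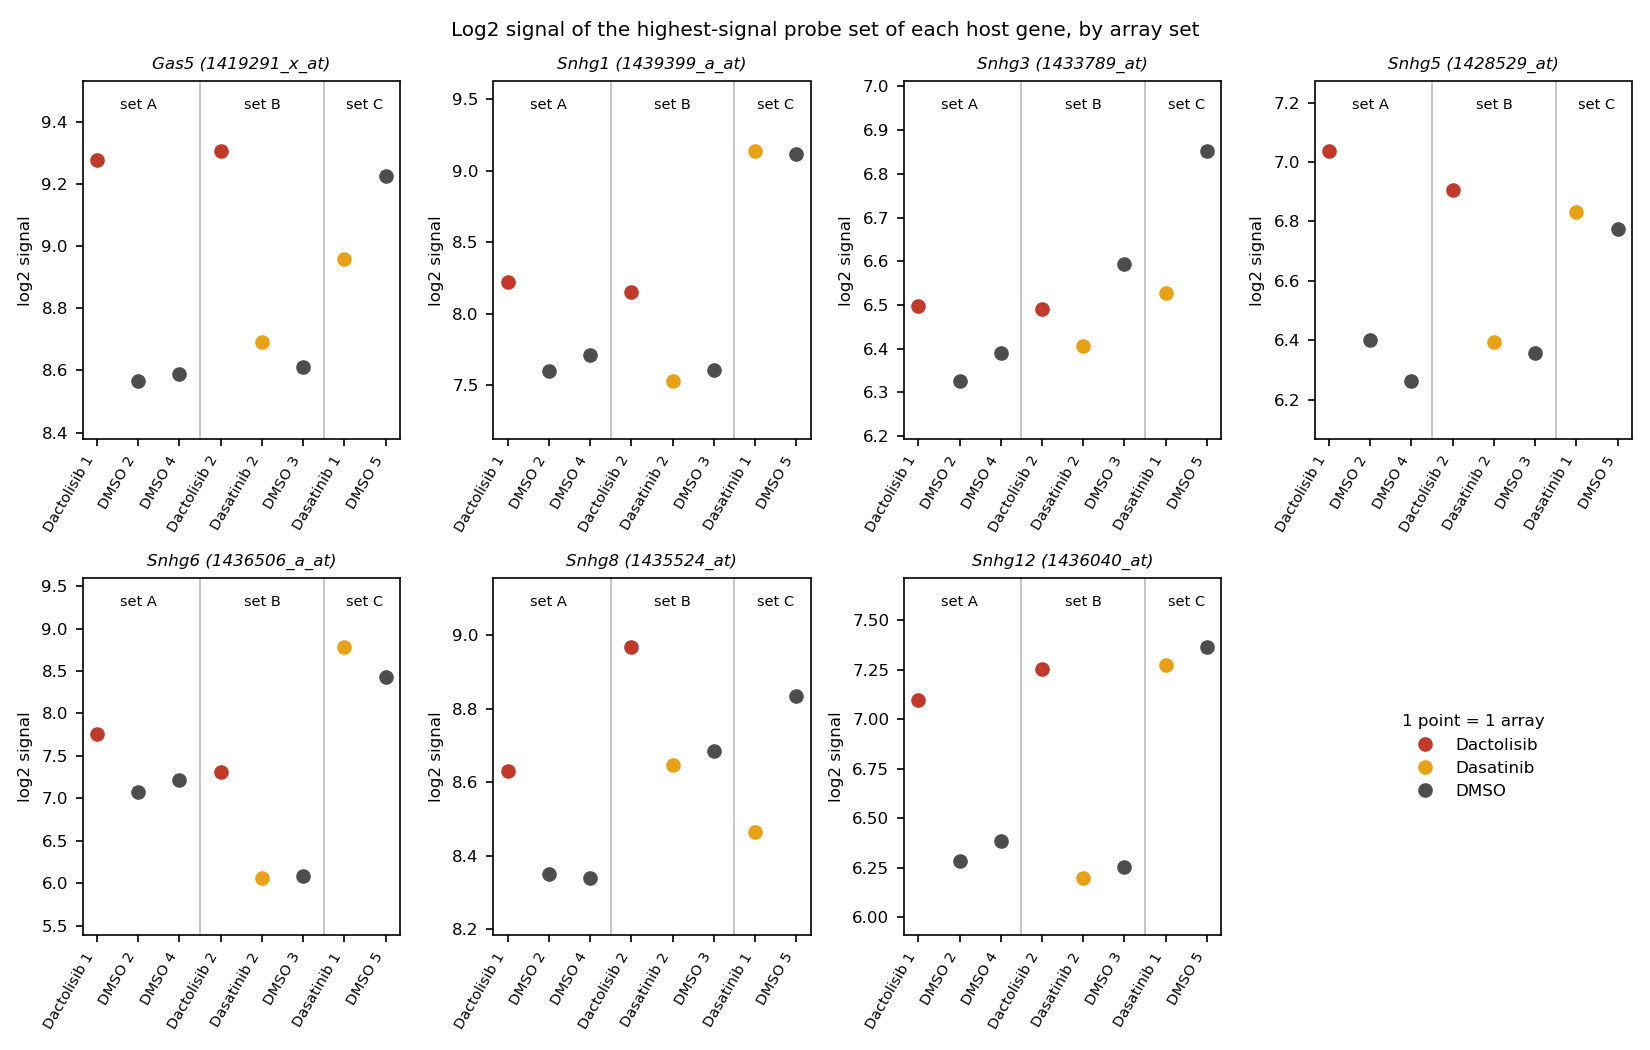
Log2 signal (vertical axis, a separate scale in each panel) of the brightest probe set of each of the 7 host genes on every array, 1 point per array, grouped by array set with Dactolisib in red, Dasatinib in orange and DMSO in grey. Within sets A and B the Dactolisib point lies above the DMSO points for Gas5, Snhg1, Snhg5, Snhg6, Snhg8 and Snhg12, while set C is high for Snhg1, Snhg6 and Snhg12 whatever the treatment.

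Over the 15 tested member probe sets, the median difference from DMSO of the own set was 0.57 on Dactolisib 1 and 0.55 on Dactolisib 2, beside -0.01 and 0.00 over all 30024 probe sets. Both Dactolisib arrays were above DMSO of their own sets on 10 of the 15, against 32.1% of all tested probe sets, and both were below on 2, against 33.5%. Both lay above DMSO 2, 3 and 4 together on 9 of the 15 (13.4% of all), and above DMSO 5 as well on 3 (11.4%). DMSO 5, the only DMSO array of set C, had the highest DMSO signal on 14 of the 16 member probe sets. The share over all probe sets was not counted, so whether this is particular to the members is not known. On the brightest probe sets it exceeded the DMSO mean of set A by 0.65 for Gas5, 1.03 for Snhg12, 1.28 for Snhg6, 0.44 for Snhg5, 0.49 for Snhg8 and 0.50 for Snhg3. Both Dactolisib arrays lay below all 4 DMSO arrays on 0 of the 15 (9.58% of all), and below DMSO 2, 3 and 4 on 0 as well (15.4%). Within array sets, 8 of the 15 were called higher under Dactolisib (2.19% of all tested probe sets were called higher) and 1 was called lower (4.2% of all). The 8 belong to Gas5 (2), Snhg1 (3), Snhg5, Snhg6 and Snhg12, and the lower one is Gas5 1436222_at. Because the members were chosen on this contrast, these counts describe the choice and test nothing.

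Without the array sets, limma called 0 of the 15 in either direction, as it called 0% of all probe sets, with 2 higher and 0 lower at an unadjusted p under 0.05, beside 2.89% higher and 3.35% lower of all. The median difference of the 15 in this fit was 0.25, beside 0.03 over all probe sets, and 0.56 within the sets, beside 0.00. The t-test named in the study's methods, here called the methods' t-test, called 0 after adjustment and 1 at an unadjusted p under 0.05, beside 3.11% higher and 3.18% lower of all. The calls within sets came to 0 when Dactolisib 1, Dactolisib 2 or DMSO 3 was left out, as did those over all 30024 probe sets in these fits, which keep 1 residual degree of freedom. The difference of Gas5 1419291_x_at within sets lay between 0.69 and 0.70 whichever array was left out.

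**Figure D2:**
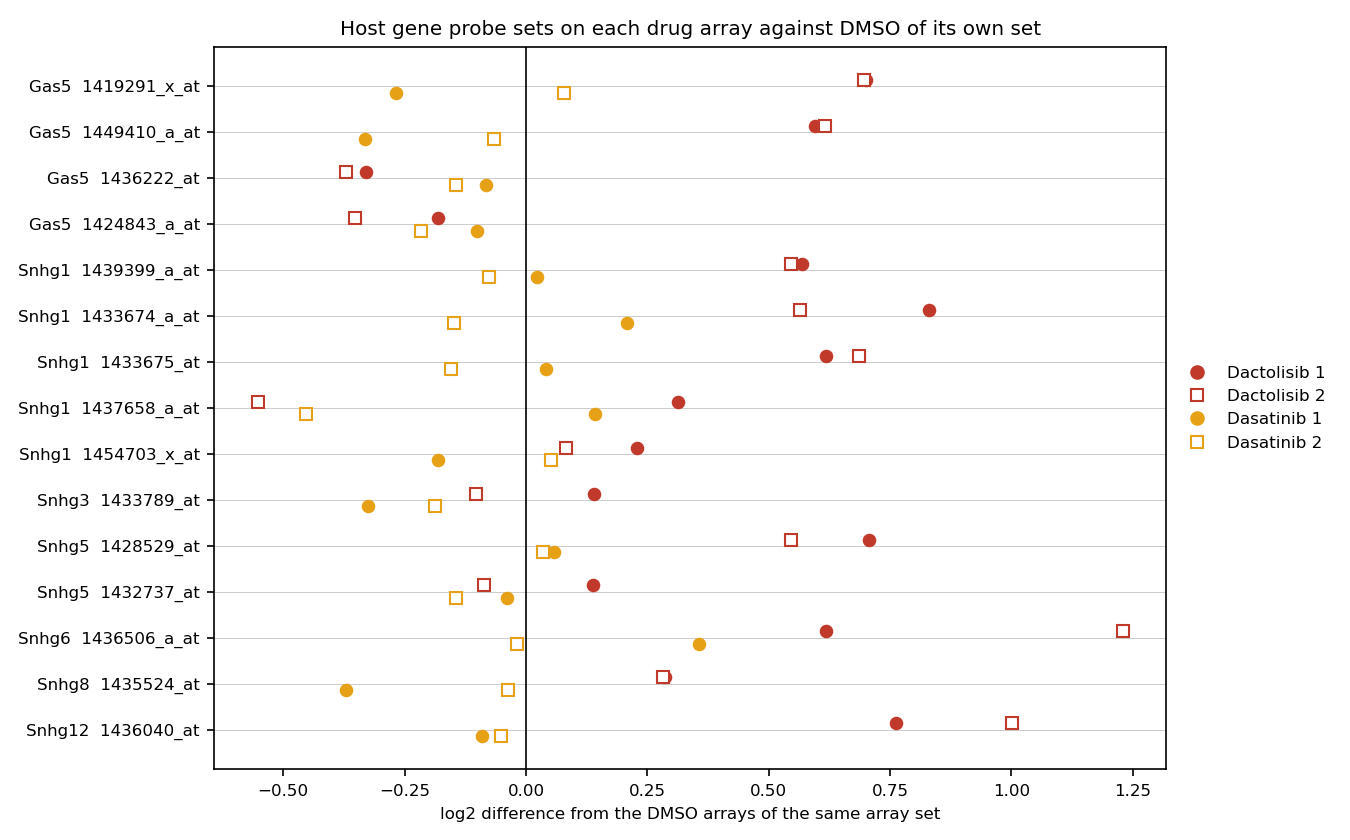
Log2 difference (horizontal axis) between each drug array and the DMSO of its set, for the 15 tested host gene probe sets, with filled circles for array 1 and open squares for array 2 of Dactolisib (red) and Dasatinib (orange). Both Dactolisib marks are right of 0 on 10 probe sets and left of 0 on the 2 lower Gas5 probe sets, and the Dasatinib marks lie between -0.45 and 0.36.

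Against DMSO of the own set, host gene differences under Dasatinib lay between -0.45 and 0.36, more often below 0 than above it. None was called. The median difference from DMSO of the own set over the 15 probe sets was -0.08 on Dasatinib 1 and -0.08 on Dasatinib 2, beside 0.00 and -0.01 over all probe sets. In the fit without sets, which leaves Dasatinib 1 of set C against mostly set A and B controls, the median was 0.16 with 12 of the 15 above 0, and within sets it was -0.09 with 3 above 0 and 12 below. Both Dasatinib arrays were above DMSO of their own sets on 1 of 15, the bright Snhg5 probe set with 0.06 and 0.04 (22.3% of all probe sets were above on both). Both were below on 7 of 15 (24.9% of all). They lay above all 4 DMSO arrays on 0 of 15 (1.9% of all) and below all 4 on 0 (2.4%). Counts of 0 are near these shares, and the Dasatinib arrays lie in different sets, so the counts are no result about the members. The brightest Gas5 probe set was 0.27 lower on Dasatinib 1 and 0.08 higher on Dasatinib 2, and Snhg12 was lower by 0.09 and 0.05. Within array sets the Dasatinib differences were -0.09 ± 0.12 for Gas5 1419291_x_at, -0.03 ± 0.10 for Snhg1 1439399_a_at, 0.17 ± 0.13 for Snhg6 and -0.07 ± 0.10 for Snhg12. limma called 0 of the 15 with or without the sets, as it called 0% of all probe sets, and the methods' t-test called 0. At an unadjusted p under 0.05 the fit within sets had 0 higher and 1 lower, Snhg3 at -0.26 ± 0.10, beside 2.12% higher and 2.75% lower of all probe sets, and the fit without sets and the methods' t-test had 0.

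**Figure D3:**
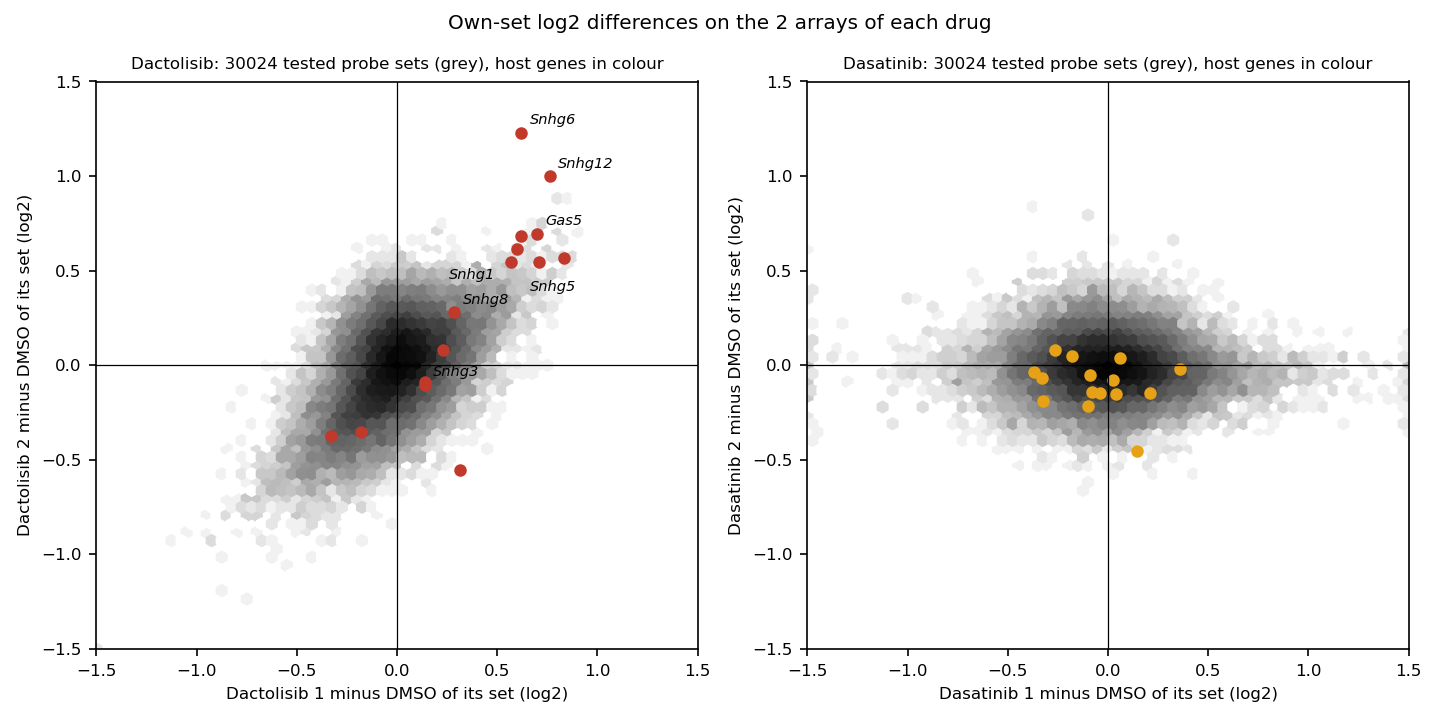
Log2 difference from DMSO of the own set on array 1 (horizontal axis) against array 2 (vertical axis) for Dactolisib (left) and Dasatinib (right), with all 30024 tested probe sets as grey density (darker for more probe sets, values past 1.5 drawn at the edge) and the 15 host gene probe sets as coloured points, the first probe set of each gene named at left. Most host gene points lie at the upper right of the Dactolisib panel, Snhg6 at 0.62 and 1.23 and Snhg12 at 0.76 and 1.0, whereas in the Dasatinib panel they lie between -0.45 and 0.36.

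Set B holds both drugs, so Dactolisib 2 and Dasatinib 2 can be set side by side at the same dose and time without set C. Dactolisib 2 was higher by 0.62 on Gas5 1419291_x_at, 0.62 on Snhg1 1439399_a_at, 0.51 on Snhg5 1428529_at, 1.25 on Snhg6, 0.32 on Snhg8 and 1.05 on Snhg12, and by 0.08 on Snhg3. Other probe sets ran the other way, with differences of -0.23 on Gas5 1436222_at, -0.14 on Gas5 1424843_a_at and -0.10 on Snhg1 1437658_a_at. In the fit of all 8 arrays within sets, Dactolisib minus Dasatinib came to 0.74 ± 0.12 for Gas5 1419291_x_at, 0.60 ± 0.10 for Snhg1 1439399_a_at, 0.56 ± 0.11 for Snhg5 1428529_at, 0.88 ± 0.20 for Snhg6 and 0.97 ± 0.11 for Snhg12. It was -0.23 ± 0.10 for Gas5 1436222_at and -0.11 ± 0.12 for Gas5 1424843_a_at, while the other 13 of the 15 lay above 0. None of the 15 passed after adjustment, nor did any of the 30024 probe sets (0%), and at an unadjusted p under 0.05 the fit within sets had 9 higher and 1 lower, beside 5.35% higher and 8.93% lower of all. Without the sets the corresponding counts were 0 and 0, and the methods' t-test had 0 and 0.

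Epithelial signal, summed over markers, differed more between the array sets than between a drug and DMSO of 1 set. The summed linear signal of 13 tested epithelial markers came to 7398 and 1969 under Dactolisib, 46984 and 2403 under Dasatinib, and 2140 to 48046 under DMSO. Set against DMSO of the own set, it was 0.84 and 0.92 times as high on Dactolisib 1 and 2. The same ratio was 0.95 and 0.96 for 14 granulocyte markers, 0.98 and 0.97 for 12 monocyte and macrophage markers and 0.94 and 0.95 for 12 fibroblast markers. The last 2 sums take in Cd163 and Pdgfra, which were below the signal limit. On Dasatinib 1 the fibroblast sum was 0.57 and the macrophage sum 1.26 times that on DMSO 5, with all ratios on Dasatinib 2 between 0.91 and 1.13. Single markers on Dasatinib 1 differed from DMSO 5 by -2.24 for Ngp, -1.60 for Mmp8 and -1.15 for Col3a1. Others differed less, with 0.06 for Krt8 and 0.31 for Cx3cr1. These 2 arrays were thus not alike on every marker, and the Dasatinib differences within sets rest partly on them. All the sums are carried by the brightest genes, and counts of markers gave another view. Of the 11 tested monocyte and macrophage markers, 9 were below DMSO of the own set on both Dactolisib arrays (35.4% of all genes). The list's median within array sets was -0.23, and 3 were called lower. They were the fractalkine receptor Cx3cr1 (-0.75 ± 0.08) and the complement genes C1qc (-0.44 ± 0.08) and C1qa (-0.35 ± 0.08). Of the 14 granulocyte markers, 9 were below on both and 2 were called lower, the gelatinase Mmp9 (-0.62 ± 0.08) and the chemokine receptor Cxcr2 (-0.55 ± 0.12). Of the 13 epithelial markers, 7 were below and 0 above on both, with Cldn4 (-0.48 ± 0.09) and Cdh1 (-0.33 ± 0.08), both proteins of cell junctions, called lower. Among the fibroblast markers the collagen gene Col6a1 was called higher (0.35 ± 0.08) and 0 were called lower, beside 2.24% higher and 4.66% lower of all genes. The lymphocyte sum over 8 markers was 195 and 209 under Dactolisib, 176 and 203 under Dasatinib, and 171 to 200 under DMSO. Of these markers, Cd3g, Cd2 and Cd79b were below the signal limit. On the 8 arrays, endothelial sums over 8 markers, 6 of them tested, were 319 to 359. Erythroid sums over 4 markers, 2 of them tested, were 123 to 166. The part of these cells in the host gene differences was not tested. As a sign of RNA quality, the 3′ minus 5′ difference of the Actb control probe sets was 0.049 and 0.0709 higher on Dactolisib 1 and 2 than on DMSO of the own set, and 0.0081 and 0.03 higher on Dasatinib 1 and 2, while DMSO 4 exceeded DMSO 2 by 0.0149. For Gapdh it was 0.0148 and 0.0178 higher on Dactolisib 1 and 2, -0.108 and -0.0127 relative to DMSO on Dasatinib 1 and 2, and 0.0401 higher on DMSO 4 than on DMSO 2. The part of RNA quality in the host gene differences was not tested.

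Host genes outside the 7 were compared through gene lists, each gene represented by its brightest single-gene probe set. Among 9 other tested noncoding hosts of the list, 2 were called higher within array sets and 0 lower, with a median of 0.09, beside 2.24% higher and 4.66% lower of 14237 genes. They were Zfas1, host of Snord12 family RNAs, at 0.62 ± 0.08, and Snhg16 at 0.50 ± 0.10. Zfas1 had signals of 8.70 and 8.94 under Dactolisib, 8.12 and 8.21 under Dasatinib, and 8.03, 8.37, 8.07 and 8.14 under DMSO, so its Dactolisib arrays stood above all others. Of 22 tested protein-coding hosts, many of them ribosomal protein or translation factor genes, 1 was called higher and 0 lower, with a median of 0.06. The one was Taf1d, a subunit of the RNA polymerase I factor SL1, at 0.82 ± 0.09. Eif4a2 differed by 0.27 ± 0.08, Nop58 by -0.41 ± 0.12 and Rpl12 by -0.28 ± 0.12, none of which passed. Some of these hosts, Nop58 among them, are also in the list of snoRNP proteins below.

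The wider annotation was read in the same way, by taking every RefSeq gene whose coordinates enclose a snoRNA, a listing made after the values had been seen and without regard to strand. Of 24 tested lncRNAs that enclose a snoRNA, 9 were called higher under Dactolisib (37.5%) and 0 lower, beside 2.24% higher and 4.66% lower of all genes. Among the 9 are Gas5, Snhg1, Snhg5, Snhg6 and Snhg12, members chosen on this contrast. Leaving out the 7 members, 4 of 17 were called higher: Zfas1, Snhg16, 2410006H16Rik (0.83 ± 0.08) and 1110038B12Rik (0.54 ± 0.08). The median over the 17 was 0.07, and 13 of them were not called. Of 255 tested protein-coding genes that enclose a snoRNA, 5 were called higher (1.96%) and 14 lower, against the same shares of all genes, with a median of -0.01. Runs of at least 7 pyrimidines stood at 7 of 10 starts of the called lncRNAs, members included, and at 6 of 15 starts of the others. Among the protein-coding genes the order was the opposite, with such runs at 0 of 5 starts of those called higher and at 69 of 263 starts of the others, and neither difference was tested.

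**Figure D4:**
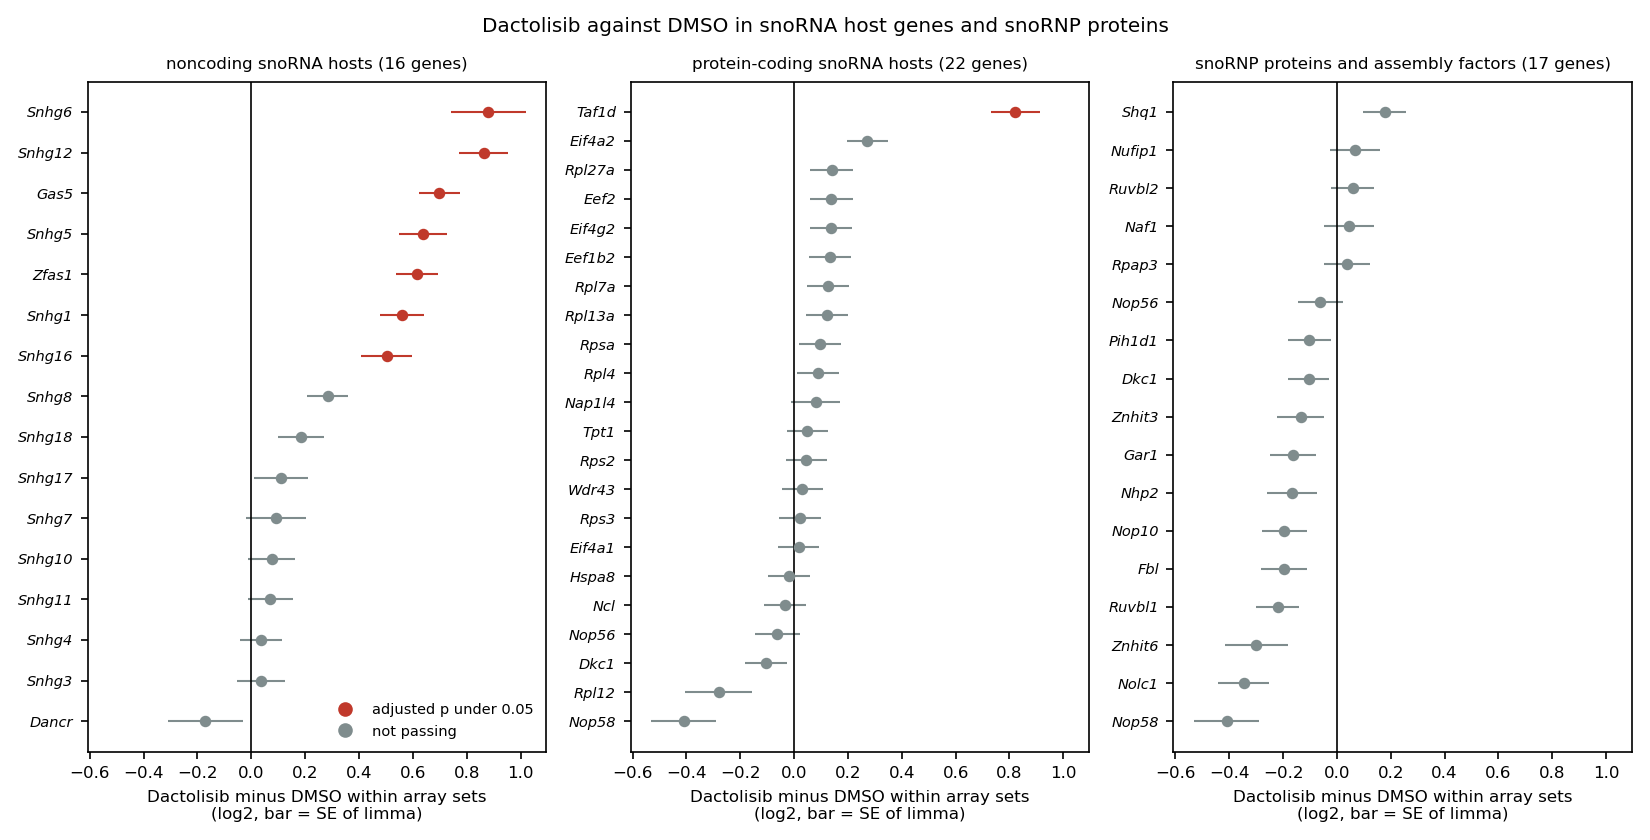
Dactolisib minus DMSO within array sets (horizontal axis, log2, bars are limma SE) for 16 noncoding snoRNA hosts, 22 protein-coding hosts and 17 snoRNP proteins and assembly factors, with red for genes past the threshold. The red genes are Gas5, Snhg1, Snhg5, Snhg6, Snhg12, Snhg16 and Zfas1 in the noncoding panel and Taf1d in the protein-coding panel, while 12 of the 17 snoRNP genes lay below 0 on both Dactolisib arrays.

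Transcripts for the proteins that package snoRNAs lay mostly below 0 under Dactolisib. Of 17 tested snoRNP proteins and assembly factors 0 were called by limma within array sets in either direction, and the list's median was -0.13. Both Dactolisib arrays were below DMSO of their own sets for 12 of the 17 (35.4% of all genes) and above for 3 (31.6%). Among those with the lowest p, Nop58, a core protein of box C/D particles, had a difference of -0.41 ± 0.12, and Nolc1, a nucleolar chaperone of snoRNPs, of -0.35 ± 0.09. Fbl, the methyltransferase fibrillarin, had -0.20 ± 0.09. Nop58 is also among the protein-coding hosts above. On the array level Nop58 had signals of 5.85 and 5.32 under Dactolisib, 8.56 and 5.83 under Dasatinib, and 6.29, 5.90, 5.97 and 8.36 under DMSO, again high in set C.

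Of 14 tested factors of nonsense-mediated decay, the pathway that removes spliced Gas5 and its relatives, 1 was called higher and 0 lower, with a median of 0.05, beside 2.24% higher and 4.66% lower of all genes. It was Pnrc2, an adaptor between decay factors and decapping, at 0.48 ± 0.08. Upf1, the central helicase of the pathway, differed by 0.05 ± 0.09, and Casc3, of the exon junction complex, by 0.32 ± 0.09 without passing. Of the glucocorticoid receptor and its target genes, 13 in all, 2 were called higher and 2 lower, against the same shares of all genes. Tsc22d3 (GILZ) and Per1 were higher by 0.53 ± 0.10 and 0.47 ± 0.09, and Fkbp5 and Cebpd had differences of -0.45 ± 0.09 and -0.60 ± 0.10. Nr3c1, the receptor itself, differed by -0.14 ± 0.08. Dasatinib called 0 genes in any of these lists, as in all 14237 genes (0%).

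The genes whose pattern was most like that of Gas5 1419291_x_at were found from the Pearson correlation over the 8 arrays after subtracting each set's mean, among 24895 probe sets. The 5 highest were Sh3glb1 (r = 0.997), Tra2a (r = 0.997), Atf4 (r = 0.997), 2410006H16Rik (r = 0.996) and Adipor1 (r = 0.995). Among the members, r was 0.97 for the second Gas5 probe set, 0.96 for Snhg12, 0.94 for Snhg5 1428529_at, 0.90 for Snhg8, 0.83 for Snhg6, 0.41 for Snhg3 and 0.30 for Snhg5 1432737_at. The Snhg1 probe sets spread widely, with 0.95 for 1439399_a_at, 0.93 for 1433675_at, 0.89 for 1433674_a_at, 0.75 for 1454703_x_at and -0.08 for 1437658_a_at. It was -0.89 and -0.68 for Gas5 1436222_at and 1424843_a_at. Many other probe sets were as much alike, since Snhg12 ranked 162, Snhg1 1439399_a_at 264 and Snhg6 1353 among the 24895. These are descriptions over 8 arrays that share sets and treatments, with no p attached.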

How the data were processed

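Total RNA of 8 Gr-MDSC samples was hybridised to 1 Affymetrix mouse expression array each. The table that the authors deposited gives log2 values for 45101 probe sets and was used without further scaling because the array medians lay between 4.82 and 4.87. The submitters' processing notes name MAS5 and the study's methods name the oligo package, and the labels name Trizol where the methods name RNeasy. The table used here holds no detection calls, so whether a dim probe set is above background is not known, and the number of arrays limits the precision.

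Probe sets were joined to genes through GEO's platform annotation: 34945 have 1 gene, 932 several and 9160 none, and 64 are controls. Those whose mean signal lay in the upper 66.7% were fitted with limma 3.58.1 in R 4.3.3. A drug and DMSO were compared with only their own arrays in the model, and the drugs with all 8 arrays in it. Sets of arrays came from average linkage on 1 minus the Pearson correlation. The lowest Spearman correlation within a set was 0.982 and the highest between sets 0.972. The self-test used simulated data with 200 changed probe sets.

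Members, gene lists and array sets were chosen with earlier results of these data known. All member probe sets are named. Of each list, up to 4 genes with the lowest p within array sets, and any that passed, could be named, and the 5 genes most correlated with Gas5 were named. Fbl, Upf1 and Nr3c1 were named for their roles after their values had been seen. Alternatives were the array set as a block, quantile normalization, 32 added before log2, no filter, the upper 33.3%, a trended and robust prior, the methods' t-test and each array left out. Those that join the block with another setting were chosen after seeing the data. Sequences and coordinates are RefSeq's, GRCm38.p6.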

Additional observations from a re-analysis of the deposited data

Results flagged for a closer look

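On 6 member probe sets, DMSO 5 stood apart from the other DMSO arrays, its gap to the nearest of them, as a share of the range over the 4 DMSO arrays, exceeding Dixon's critical value. The log2 signal of DMSO 5 was 9.23 on Gas5 1419291_x_at, 7.36 on Snhg12, and 9.12, 8.50, 8.32 and 6.09 on Snhg1 1439399_a_at, 1433674_a_at, 1433675_at and 1454703_x_at. The gap was 0.93 of the range for Gas5 and 0.845 to 0.928 for the Snhg1 probe sets. Chance alone marks about 1 group in 20 in this way if the 4 arrays are interchangeable, but DMSO 5 is the only DMSO array of set C. Probe sets of 1 gene are not independent of each other, and the share of all probe sets marked was not counted. DMSO 5 lies in set C with Dasatinib 1, which had 9.14 on Snhg1 1439399_a_at and 7.27 on Snhg12. It also had the highest Krt8 signal among the DMSO arrays, 13.31, and the highest epithelial marker sum, 48046. The part of epithelial RNA in the DMSO 5 levels of Gas5, Snhg1 and Snhg12 was not tested.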

How the results depend on the processing

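The count of member probe sets called for Dactolisib against DMSO was 0 without the array sets under every setting tried, each array left out included. With the array set as a block it was 9 (beside 6.39% of all tested probe sets), and it was 10 with 32 added before log2 (13.1%), 10 in the upper 33.3% by signal (23.6%), 10 with a robust, trended prior (13.1%), 8 with quantile normalization (5.63%) and 8 with no filter (2.74%). With 1 array left out, this count ranged from 0 to 9: it was 0 without Dactolisib 1, Dactolisib 2 or DMSO 3, 8 without DMSO 4, and 9 without DMSO 2 or DMSO 5. DMSO 5 is the only set C array in this comparison, so the fit with the block is the same with or without it. Leaving out Dactolisib 2 or DMSO 3 also gives 1 and the same fit. The 9 called differences kept their sign in each fit with the block. Without the sets, Snhg6 was -0.03 when DMSO 3 was left out, against 0.34 with all arrays. Gas5 1436222_at passed in 3 of the 5 settings that join the block with another choice, and Snhg8 also in 3 of 5. For Dasatinib against DMSO the count was 0 under every setting. For Dactolisib against Dasatinib the block gave 0, but 5 with 32 added (0.799% of all), 5 in the upper 33.3% (1.37%) and 6 with the robust, trended prior (0.936%), and it ranged from 0 to 4 with 1 array left out, 4 being the count without Dasatinib 2. The replicate number as a block, possible only between the drugs because a drug and DMSO share 1 number, gave 0. Deviations of same-numbered drug arrays correlated at 0.559, a value that 2 arrays a group force to be equal for both pairs, so the numbers were not taken as a pairing. The causes of these changes were not tested. With 2 arrays of each drug, and set C without a Dactolisib array, the size of every difference rests on few arrays.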
